A study of Danio rerio with 23 samples.

Results

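The splicing factor genes of the zebrafish count table were taken as the genes whose symbol, with case ignored, starts with snrp, sf3a, sf3b, srsf, hnrnp or prpf, or with lsm and a digit. This gave 82 of the 22856 genes in the table, of which 20170 carry a symbol. They fell into 8 groups by complex. The Sm core held 8 genes, the U1 snRNP 4, the U2 snRNP 11, the LSm2 to LSm8 ring 7, the other LSm proteins 8, the remaining PRPF genes 8, the SR proteins 15 and the hnRNPs 21. The symbol rule used no expression value, but the set was chosen with earlier results of these data known. A low-count filter left 79 of the 82 for testing; LSM10, LSM14B and 1 of the SNRPD3 entries (ENSDARG00000013800) did not pass it. The count table lists genes by identifier, and the symbols came from a separate gene name reference. Names are given as that reference spells them. In it 6 symbols (HNRNPU, HNRNPK, HNRNPAB, SRSF6, SRSF1 and SNRPD3) are each carried by a pair of gene identifiers.

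Introns are removed from pre-mRNA by the spliceosome, a machine built from small nuclear ribonucleoproteins (snRNPs), each a small nuclear RNA with its proteins. U1 recognises the 5′ splice site and U2 the branch point, after which the U4, U5 and U6 particles join and the catalytic centre forms. SR proteins mostly bind exons and promote the use of nearby splice sites, while many hnRNPs coat nascent transcripts and can repress splice sites. In humans, mutations in several PRPF genes of the U4/U6.U5 tri-snRNP cause retinitis pigmentosa, a degeneration of the photoreceptors.

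RNA was sequenced from whole larvae of the Tg(fli1:EGFP) line, which carries a green fluorescent reporter of vascular endothelium, at 96 h post fertilisation, without treatment. The genotypes were GLO1/AKR1A1A DKO (n = 6), GLO1KO (n = 6), AKR1A1AKO (n = 5) and WT (n = 6), that is, larvae lacking both enzymes, glyoxalase 1 alone, the aldo-keto reductase Akr1a1a alone, or neither. Both enzymes clear reactive carbonyls, and the study asked what happens when both are lost. The single mutants were made with CRISPR/Cas9 and the DKO line came from intercrosses of double heterozygotes; clutches of 20 larvae were pooled. The replicates are described as clutches. Whether the clutches of 1 genotype had separate parents is not given in the sources used here, so p-values measure the spread between clutches. In whole larvae, fewer cells of a type and less RNA per cell cannot be told apart.

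Counted reads per library ranged from 34316505 to 36804418. The glo1 gene, a check of the labels, lay at 2.73 to 4.16 CPM (read counts scaled to a common library total, with TMM factors) in DKO larvae and 2.85 to 3.45 CPM in GLO1KO larvae, against 74.5 to 86.9 CPM in AKR1A1AKO larvae and 73.5 to 87.1 CPM in WT larvae. Markers of some organs moved with genotype. Of all genes tested, 29.6% were higher and 31.4% lower in DKO than in WT larvae. In GLO1KO larvae 30.5% were higher and 32.5% lower, and in AKR1A1AKO larvae 17.8% and 19.7%. Of 20 photoreceptor markers tested, 20 were higher in DKO, 20 in GLO1KO and 18 in AKR1A1AKO larvae than in WT larvae, and their summed level was 11850 to 13630, 11920 to 13950 and 11310 to 13000 CPM, against 6992 to 9788 CPM in WT. Of 21 neuron markers, 13, 14 and 14 were higher and 4 lower in each knockout, with sums of 5830 to 6075, 5806 to 6240 and 5363 to 5930 CPM, against 3735 to 5210 CPM. Of 14 liver markers, 12, 14 and 14 were lower, with sums of 1880 to 3504, 739 to 1592 and 1455 to 3242 CPM, against 3463 to 8905 CPM. Of 9 erythrocyte markers, 2, 1 and 0 were higher and 5, 6 and 3 lower, with sums of 288 to 383, 316 to 353 and 282 to 422 CPM, below the 427 to 489 CPM of WT. Of 23 proliferation genes, 10, 8 and 4 were higher and 1, 5 and 0 lower, with sums of 1226 to 1335, 1112 to 1236 and 1103 to 1264 CPM, against 1097 to 1216 CPM. Only the DKO sums lay wholly above WT for proliferation. Epidermis sums lay above WT in DKO and AKR1A1AKO libraries, though the median log2 change of the 15 markers was -0.04 and -0.18. Of these markers 4 were higher and 3 lower in DKO, and 4 and 2 in AKR1A1AKO larvae. Leukocyte sums lay below WT in DKO and GLO1KO libraries, with 5 and 6 of 11 markers lower and 0 and 1 higher. Skeletal muscle sums lay above WT in DKO libraries, with 6 of 15 markers higher and 7 lower. Of 10 exocrine pancreas markers, 0, 1 and 0 were higher and 3, 9 and 7 lower in DKO, GLO1KO and AKR1A1AKO larvae. No marker of these lists was at 0 in every library. WT replicates 1 and 2 had the highest liver and exocrine pancreas sums and the lowest neuron and photoreceptor sums, so the counts against WT are also given without them. The other WT libraries still differed, with neuron sums of 4472 CPM in replicate 3 and 5210 CPM in replicate 6. Their photoreceptor sums were 8724 and 9788 CPM. The part of these shifts in the results below was not tested.

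After TMM scaling the splicing factor genes summed to more CPM in all 3 knockouts than in WT larvae, and to most in DKO larvae. The sums were 9803 to 10250 CPM in DKO, 9355 to 9740 CPM in GLO1KO and 8470 to 8881 CPM in AKR1A1AKO libraries, against 7132 to 8297 CPM in WT libraries, so that every knockout library lay above every WT library. That separation depended on the TMM factors. As a share of all counted reads the genes took 0.914% to 0.965% in DKO, 0.889% to 0.98% in GLO1KO and 0.86% to 0.922% in AKR1A1AKO libraries, against 0.772% to 0.884% in WT libraries. On that scale AKR1A1AKO overlapped WT, and 2 GLO1KO libraries lay above every DKO library. Against WT, 66 of 79 genes were higher and 0 lower in DKO larvae (edgeR's quasi-likelihood test, Benjamini-Hochberg adjusted p below 0.05 over all genes tested), where 29.6% of all genes tested were higher and 31.4% lower. By the unadjusted p, 2 genes were lower, and DESeq2 and limma also called 0 lower. With a fold change above 1.5 as well, 15 genes were higher, a share of 19% against 7.32% of all genes. In GLO1KO larvae 60 genes were higher and 2 lower (30.5% and 32.5% of all genes), and 7 passed the fold criterion (6.85% of all genes). In AKR1A1AKO larvae 36 were higher and 0 lower (17.8% and 19.7% of all genes; 0 lower by the unadjusted p, DESeq2 or limma), and 0 passed the fold criterion by edgeR, at the unadjusted p, or by DESeq2 or limma, where 2.26% of all genes did. The median log2 fold change was 0.40 in DKO, 0.32 in GLO1KO and 0.17 in AKR1A1AKO larvae over the 79 genes, and -0.01 over all genes tested in each. Without WT replicates 1 and 2, a choice made after the data were seen, 63, 58 and 21 genes were higher, where 26.8%, 27.6% and 10.9% of all genes were. The numbers lower were then 2, 3 and 0, where 28%, 29.7% and 13.4% of all genes were. The 21 for AKR1A1AKO is a fall of more than 1.5 times. The CPM ranges did not overlap for 57, 54 and 21 genes, all of them higher, where 19.5%, 19.4% and 9.96% of all genes tested were higher without overlap. These ranges, like those of single genes below, are of TMM-scaled CPM. How many stay apart without the TMM factors was not counted. All 3 comparisons share the WT libraries. In WT replicates 1 to 6 the splicing factor genes summed to 7132, 7514, 7875, 7827, 8056 and 8297 CPM. The neuron markers there summed to 3735, 4195, 4472, 4912, 4877 and 5210 CPM. The part of this spread within WT in the counts was not tested.

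**Figure D1:**
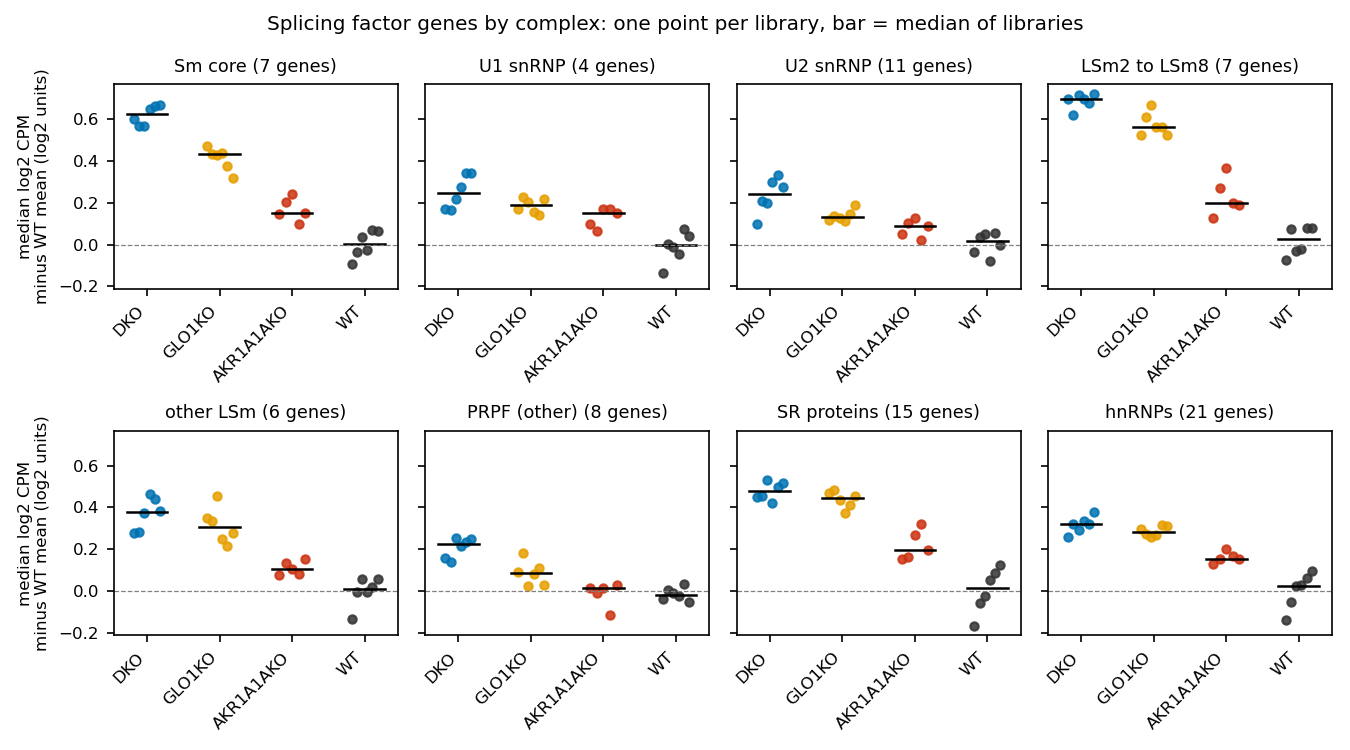
Median over the genes of each complex of log2 CPM minus the WT mean (y axis, log2 units), 1 point per library and a bar at the median of the libraries of each genotype (x axis). DKO libraries lie at 0.57 to 0.67 for the Sm core and 0.62 to 0.72 for the LSm2 to LSm8 ring, above every library of the other genotypes for the Sm core, while DKO and GLO1KO libraries overlap for the SR proteins and the hnRNPs.

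The Sm proteins form a ring of 7 on the U1, U2, U4 and U5 RNAs. All 7 tested Sm genes were higher in DKO than in WT larvae, and their CPM ranges did not overlap for any of the 7. Their log2 fold changes lay between 0.51 and 0.77, with a median of 0.60. SNRPF stood at 41.5 to 47.8 CPM (median 43.6) in DKO and 36.4 to 42.8 CPM (median 39.6) in GLO1KO libraries. It had 28.4, 27.99, 30.7, 25.6 and 28.6 CPM in AKR1A1AKO and 24.4 to 28.8 CPM (median 25.3) in WT libraries. The DKO and GLO1KO libraries were thus all above the WT libraries, and the AKR1A1AKO libraries overlapped WT. Against WT the change of SNRPF was 1.70-fold in DKO (log2 fold change 0.77 ± 0.06 (SE), edgeR adjusted p = 4.00e-08) and 1.54-fold in GLO1KO (log2 fold change 0.62 ± 0.05 (SE), edgeR adjusted p = 3.81e-07), and in AKR1A1AKO it did not pass (log2 fold change 0.14 ± 0.06 (SE), edgeR adjusted p = 0.0827).

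SNRPD1, which pairs with SNRPD2 during ring assembly, had 51.1 to 56.1 CPM (median 55.2) in DKO and 41.2 to 44.7 CPM (median 43) in GLO1KO libraries. It had 39.1, 40.7, 39.9, 38.7 and 36.99 CPM in AKR1A1AKO and 30.2 to 36.8 CPM (median 34.1) in WT libraries. On TMM-scaled CPM every DKO library exceeded every library of the other 3 genotypes, and every single-mutant library exceeded WT. Its log2 fold change against WT was 0.67 ± 0.06 in DKO (edgeR adjusted p = 1.59e-07), 0.35 ± 0.05 in GLO1KO (6.74e-05) and 0.21 ± 0.06 in AKR1A1AKO (0.0149). With library size as the only scaling, SNRPD1 did not pass in AKR1A1AKO (edgeR adjusted p = 0.0619). SNRPE, another subunit of the ring, lay at 39.3 to 43.96 CPM (median 40.5) in DKO and 32.4 to 39.7 CPM (median 34.8) in GLO1KO libraries. It had 29.03, 29.03, 32.7, 28.1 and 30.04 CPM in AKR1A1AKO and 22.9 to 28.1 CPM (median 27.1) in WT libraries, with a log2 fold change of 0.62 ± 0.06 in DKO against WT (edgeR adjusted p = 3.84e-07). The remaining Sm genes, SNRPB, SNRPD2, SNRPG and the tested SNRPD3 entry, changed by 0.51 to 0.60 in DKO. In GLO1KO larvae all 7 were also higher (median 0.42), and in AKR1A1AKO larvae 5 of 7 (median 0.18). Under library size alone all 7 were still higher in GLO1KO larvae, but 0 of 7 in AKR1A1AKO larvae (median 0.11).

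The LSm2 to LSm8 proteins form the sister ring on the 3′ end of U6 RNA, and LSm2 to LSm7 are shared with a cytoplasmic ring that acts in mRNA decay. All 7 were higher in DKO than in WT larvae, 6 of them by more than 1.5-fold, and the median log2 fold change of 0.68 was the highest of the 8 groups. LSM8, the subunit that defines the nuclear ring, had 17.3 to 22.5 CPM (median 21.4) in DKO and 17.5 to 19.7 CPM (median 18.6) in GLO1KO libraries. It had 12.3, 14.2, 12.9, 12.2 and 12.6 CPM in AKR1A1AKO and 11.2 to 12.5 CPM (median 11.6) in WT libraries. The DKO and GLO1KO ranges both lay above WT, and the AKR1A1AKO range overlapped it. Against WT, LSM8 rose 1.76-fold in DKO (log2 fold change 0.81 ± 0.07 (SE), edgeR adjusted p = 1.33e-07) and 1.58-fold in GLO1KO (log2 fold change 0.66 ± 0.05 (SE), edgeR adjusted p = 2.60e-07). In AKR1A1AKO larvae its log2 fold change was 0.13 ± 0.07 (edgeR adjusted p = 0.142).

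LSM7, common to both rings, had 67.2 to 79.7 CPM (median 70.7) in DKO and 59.04 to 63.2 CPM (median 62.4) in GLO1KO libraries. It had 55.1, 53.1, 54.6, 55.4 and 51.7 CPM in AKR1A1AKO and 37.04 to 45.1 CPM (median 43.2) in WT libraries. None of the 4 ranges overlapped, and they stood in the order DKO, GLO1KO, AKR1A1AKO, WT. Its log2 fold change against WT was 0.76 ± 0.06 in DKO (edgeR adjusted p = 1.23e-07), 0.55 ± 0.05 in GLO1KO (7.88e-07) and 0.36 ± 0.06 in AKR1A1AKO (0.00124). LSM6, a further shared subunit, had 37.03 to 40.4 CPM (median 39.2) in DKO and 31.2 to 38.4 CPM (median 36.4) in GLO1KO libraries. It had 30.6, 25.4, 31.04, 28.7 and 24.9 CPM in AKR1A1AKO and 22.04 to 25.6 CPM (median 24.4) in WT libraries, a log2 fold change of 0.68 ± 0.05 in DKO (edgeR adjusted p = 8.09e-08). LSM2 had few reads, at 1.55 to 2.62 CPM (median 2.31) in DKO and 1.67 to 2.51 CPM (median 2.18) in GLO1KO, against 0.629 to 1.55 CPM (median 1.28) in WT libraries. Its changes of 0.91 ± 0.21 in DKO and 0.87 ± 0.20 in GLO1KO (edgeR adjusted p = 0.0015 and 0.00142) had the largest standard errors of the ring, and the DKO and WT ranges overlapped. GLO1KO larvae had all 7 ring genes higher than WT (median 0.56), and AKR1A1AKO larvae 4 of 7 (median 0.22).

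**Figure D2:**
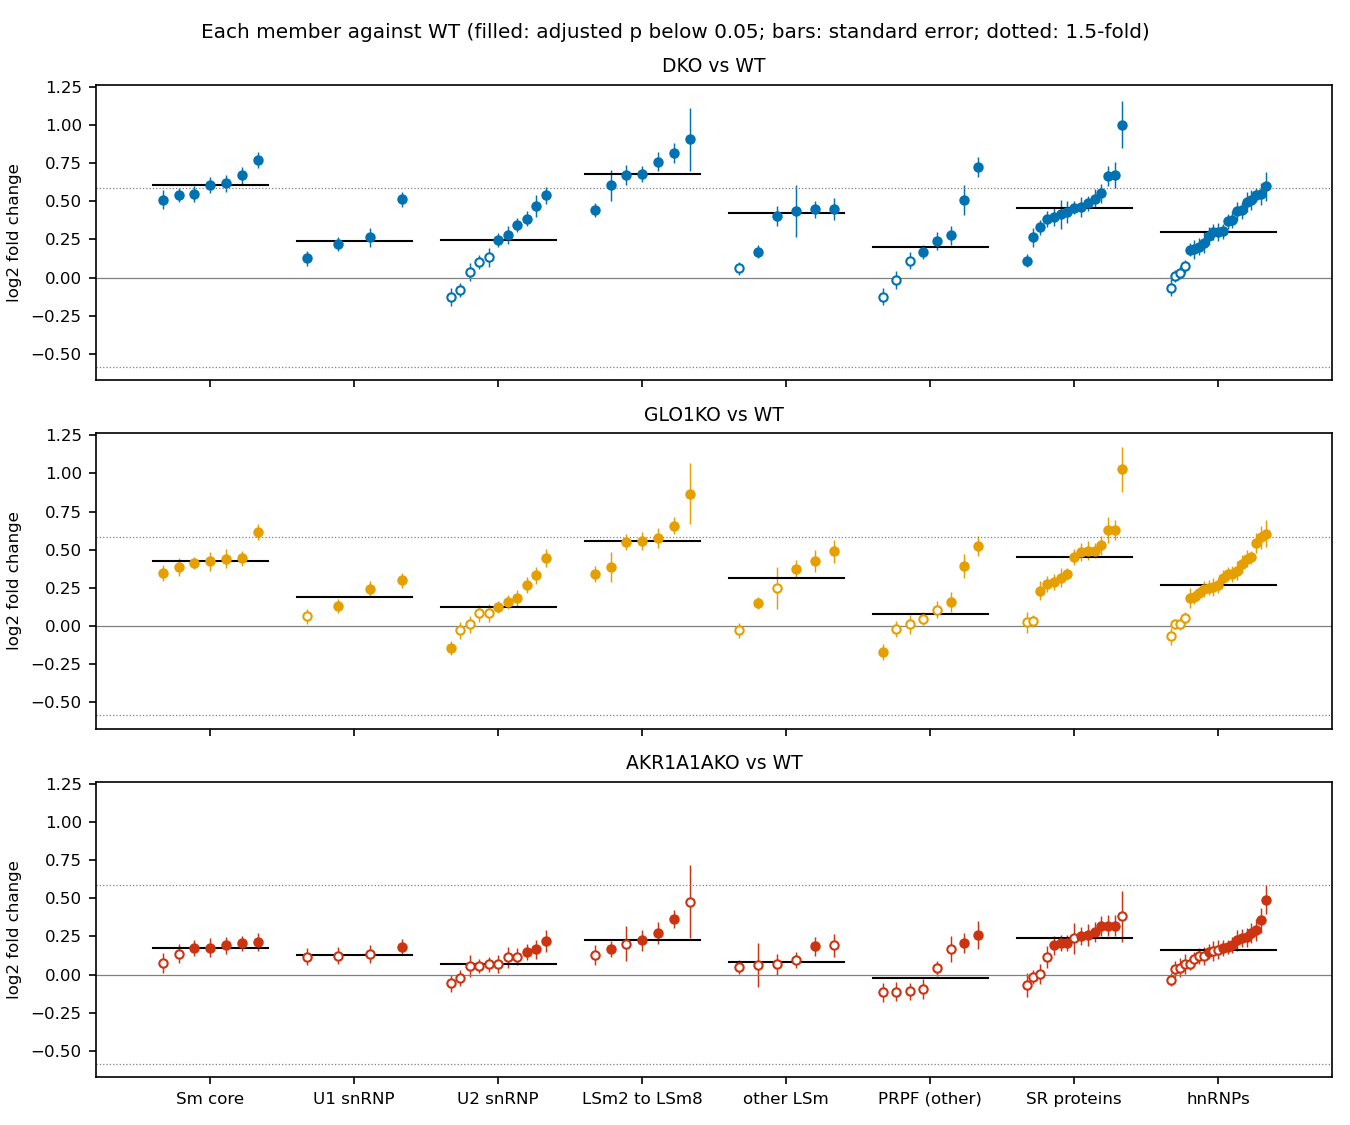
Log2 fold change against WT (y axis) of every tested gene, grouped by complex (x axis) and sorted within it, in DKO (top), GLO1KO (middle) and AKR1A1AKO (bottom) larvae; filled points passed the adjusted p of 0.05, bars are standard errors, black lines group medians and dotted lines the 1.5-fold change. In DKO larvae the filled points lie above 0, 66 of 79, with the LSm2 to LSm8 ring (median 0.68) and the Sm core (median 0.60) highest.

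Of the other LSm genes, 5 of the 6 tested were higher in DKO than in WT larvae, and 0 passed the 1.5-fold criterion by edgeR, at the unadjusted p, or by DESeq2 or limma. LSM1, the subunit that replaces LSm8 in the cytoplasmic decay ring, had 13.1 to 15.3 CPM (median 13.9) in DKO and 12.6 to 15.9 CPM (median 15.4) in GLO1KO libraries, against 9.51 to 11.4 CPM (median 10.6) in WT libraries. Both mutant ranges lay above WT, with log2 fold changes of 0.40 ± 0.06 and 0.49 ± 0.07 (edgeR adjusted p = 7.40e-05 and 5.11e-05). In AKR1A1AKO libraries it had 10.7, 11.2, 11.8, 10.8 and 10.4 CPM, a log2 fold change of 0.07 ± 0.07 (edgeR adjusted p = 0.441). The paralogues LSM12 and lsm12b changed by 0.45 ± 0.07 and 0.45 ± 0.05 in DKO (edgeR adjusted p = 6.99e-05 and 6.55e-06), with 28.1 to 32.2 CPM (median 28.5) and 94.8 to 103 CPM (median 97.7) in DKO libraries against 17.8 to 23.9 CPM (median 20.9) and 65.1 to 81.2 CPM (median 70.3) in WT libraries. LSM11, a subunit of the U7 snRNP that processes histone mRNA, changed by 0.44 ± 0.17 (edgeR adjusted p = 0.0358). It lost this call under library size alone (edgeR adjusted p = 0.197) and without WT replicate 1, 2 or 5 or DKO replicate 3 or 5 (0.0648 to 0.0976). LSM14A, a P-body protein, changed by 0.17 ± 0.04 (edgeR adjusted p = 0.00291), while its paralogue lsm14aa had 0.06 ± 0.04 and did not pass (edgeR adjusted p = 0.228). Under library size alone LSM14A turned to -0.01 and did not pass (edgeR adjusted p = 0.886), and lsm14aa passed as lower, at -0.12 (edgeR adjusted p = 0.0212).

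The U1 and U2 particles also carry proteins of their own. All 4 U1 genes were higher in DKO larvae (median log2 fold change 0.24), 3 of 4 in GLO1KO and 1 of 4 in AKR1A1AKO larvae. The shares of all genes tested that were higher were 29.6%, 30.5% and 17.8%. But under library size alone 1 of the 4, PRPF39, was higher in DKO, where 16.2% of all genes were. PRPF39, whose yeast homologue is a U1 snRNP protein, had 121 to 132 CPM (median 127) in DKO and 98.4 to 115 CPM (median 109.7) in GLO1KO libraries. It had 101, 91.9, 100.1, 100.4 and 105 CPM in AKR1A1AKO and 80.3 to 93.99 CPM (median 87.8) in WT libraries. Its DKO range lay above every other library, and its log2 fold change against WT was 0.51 ± 0.05 in DKO (edgeR adjusted p = 3.97e-07). SNRPC, which stabilises the pairing of U1 with the 5′ splice site, had 44.9 to 50.03 CPM (median 48.8) in DKO libraries against 38.5 to 43.9 CPM (median 41.3) in WT libraries (log2 fold change 0.22 ± 0.05 (SE), edgeR adjusted p = 0.000957). With library size as the only scaling, SNRPC had 0.04 and no longer passed (edgeR adjusted p = 0.463).

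Of the 11 U2 genes, 6 were higher in DKO larvae, 0 lower (1 at the unadjusted p, 0 by DESeq2 and limma), and 5 did not pass. Over all genes tested 29.6% were higher and 31.4% lower. The 6 were SF3B5, SF3B1, SF3B6, SF3A2, SNRPA1 and SF3B2, of the SF3A and SF3B complexes that bind the branch point, and of the U2 core in the case of SNRPA1. SF3B5 had 34.3 to 40.3 CPM (median 38.7) in DKO and 29.3 to 34.3 CPM (median 33.4) in GLO1KO libraries. It had 28.6, 27.7, 28.1, 26.1 and 28.9 CPM in AKR1A1AKO and 23.9 to 27.2 CPM (median 25.7) in WT libraries. It changed by 0.54 ± 0.06 in DKO against WT (edgeR adjusted p = 1.23e-06), and the DKO libraries were all above WT. SF3B1, the scaffold that grips the branch point helix, had 342 to 436 CPM (median 386) in DKO and 349.6 to 399.5 CPM (median 379) in GLO1KO libraries. It had 309, 295, 315, 349 and 348 CPM in AKR1A1AKO and 249 to 312 CPM (median 281) in WT libraries, with a log2 fold change of 0.47 ± 0.07 in DKO, 0.45 ± 0.06 in GLO1KO and 0.22 ± 0.07 in AKR1A1AKO (edgeR adjusted p = 5.68e-05, 1.56e-05 and 0.0265). The AKR1A1AKO call of SF3B1 was lost under library size alone (edgeR adjusted p = 0.108) and without WT replicate 1 or 3 or AKR1A1AKO replicate 4 or 5 (0.0554 to 0.0726). SF3B6, which contacts the branch point adenosine, had 39.3 to 42.6 CPM (median 41.1) in DKO libraries against 29.3 to 34.2 CPM (median 31.1) in WT libraries (log2 fold change 0.39 ± 0.05 (SE), edgeR adjusted p = 7.67e-06). SF3B3 was the U2 gene that fell in GLO1KO larvae, by 0.15 on the log2 scale (SE 0.05, edgeR adjusted p = 0.0138). Its log2 fold change in DKO was -0.08 ± 0.05 and did not pass (edgeR adjusted p = 0.134). With library size as the only scaling SF3B3 passed as lower in DKO, at -0.26 (edgeR adjusted p = 0.00026).

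The PRPF genes outside U1 were divided. In DKO larvae 5 of 8 were higher, with a median log2 fold change of 0.20. In GLO1KO larvae 3 of 8 were higher and 1 lower, and in AKR1A1AKO larvae 2 of 8 were higher. The shares of all genes tested that were higher were 29.6%, 30.5% and 17.8%, and 32.5% were lower in GLO1KO. The paralogues PRPF38A and prpf38b led; the human PRPF38A protein enters just before activation of the spliceosome. The level of prpf38b was 87.1 to 97.01 CPM (median 92.3) in DKO and 76.7 to 82.2 CPM (median 80.3) in GLO1KO libraries. It had 57, 57.5, 59.8, 69.96 and 66.8 CPM in AKR1A1AKO and 47.4 to 63.99 CPM (median 55.5) in WT libraries. Every DKO library was above every GLO1KO library, and every GLO1KO library above every AKR1A1AKO and WT library. The change against WT was 1.65-fold in DKO (log2 fold change 0.72 ± 0.07 (SE), edgeR adjusted p = 5.00e-07). PRPF38A had 19.7 to 27.2 CPM (median 22.8) in DKO libraries against 13.2 to 19.5 CPM (median 15.8) in WT libraries (log2 fold change 0.51 ± 0.10 (SE), edgeR adjusted p = 0.000443). PRPF18, which acts in the second catalytic step, had 20.8 to 23.99 CPM (median 21.4) in DKO libraries against 15.3 to 19.3 CPM (median 17.9) in WT libraries (log2 fold change 0.28 ± 0.06 (SE), edgeR adjusted p = 0.00183), and with library size as the only scaling it had 0.10 and no longer passed (edgeR adjusted p = 0.189).

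Among the tri-snRNP genes of that group, PRPF31 and PRPF6 were higher in DKO larvae, at 0.24 ± 0.06 and 0.17 ± 0.04 (edgeR adjusted p = 0.00326 and 0.00403), and PRPF4 had -0.02 ± 0.06 (edgeR adjusted p = 0.794). Both calls were lost under library size alone, where PRPF31 had 0.06 and PRPF6 -0.01 (edgeR adjusted p = 0.403 and 0.851). PRPF4 then passed as lower, at -0.20 (edgeR adjusted p = 0.0083). PRPF8, the scaffold of the catalytic centre, had 178 to 185 CPM (median 182) in DKO and 172 to 180.0 CPM (median 174) in GLO1KO libraries. It had 183, 181, 179.7, 172 and 189 CPM in AKR1A1AKO and 172 to 213 CPM (median 203) in WT libraries. The WT libraries were the most spread and overlapped all 3 knockouts. PRPF8 fell in GLO1KO larvae by 0.17 on the log2 scale (SE 0.05, edgeR adjusted p = 0.0135). In DKO it had -0.12 ± 0.06 and did not pass (edgeR adjusted p = 0.0622), but under library size alone it passed as lower, at -0.30 (edgeR adjusted p = 0.00029).

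All 15 SR protein genes were higher in DKO than in WT larvae, 3 of them by more than 1.5-fold, and 13 of 15 without overlap of the CPM ranges. The median log2 fold change was 0.46 in DKO, 0.45 in GLO1KO (13 of 15 higher) and 0.24 in AKR1A1AKO larvae (9 of 15 higher). The gene srsf3a, a paralogue of SRSF3 with few reads, had 1.52 to 2.26 CPM (median 1.96) in DKO and 1.60 to 2.50 CPM (median 1.90) in GLO1KO libraries. It had 1.05, 1.25, 1.35, 1.56 and 1.07 CPM in AKR1A1AKO and 0.805 to 1.15 CPM (median 0.938) in WT libraries. DKO and GLO1KO libraries were all above WT and overlapped each other, at 1.00 ± 0.15 and 1.03 ± 0.15 (edgeR adjusted p = 5.78e-05 and 3.48e-05). It was the 1 splicing factor gene whose deposited values were not whole. SRSF11 had 235 to 278 CPM (median 261) in DKO and 233 to 266 CPM (median 248) in GLO1KO libraries. It had 182, 160.0, 198, 219 and 189 CPM in AKR1A1AKO and 135 to 200.0 CPM (median 159) in WT libraries. The DKO and GLO1KO ranges lay above WT, and the change in DKO was 1.59-fold (log2 fold change 0.67 ± 0.09 (SE), edgeR adjusted p = 9.31e-06).

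SRSF4, an SR protein with a long arginine-serine domain, had 178 to 204 CPM (median 189.5) in DKO and 164 to 194 CPM (median 187) in GLO1KO libraries. It had 144, 141, 146, 161 and 150.2 CPM in AKR1A1AKO and 100.2 to 131 CPM (median 121) in WT libraries. All 3 mutant ranges lay above WT, with log2 fold changes of 0.66 ± 0.07 in DKO, 0.63 ± 0.07 in GLO1KO and 0.32 ± 0.07 in AKR1A1AKO (edgeR adjusted p = 9.25e-07, 1.87e-06 and 0.00464). SRSF7, which also acts in mRNA export, had a different order, with 12.3 to 14.5 CPM (median 13.2) in DKO and 9.92 to 12.3 CPM (median 11.4) in GLO1KO libraries. It had 14.3, 13.5, 12.6, 14.6 and 13.4 CPM in AKR1A1AKO and 10.3 to 11.9 CPM (median 10.8) in WT libraries. Against WT it rose in DKO (0.26 ± 0.06, edgeR adjusted p = 0.00251) and in AKR1A1AKO (0.32 ± 0.07, 0.0039), while in GLO1KO it had 0.03 ± 0.07 (edgeR adjusted p = 0.752). Under library size alone SRSF7 had 0.09 in DKO and did not pass (edgeR adjusted p = 0.263). The pair of genes named SRSF6 had 0.46 ± 0.06 for ENSDARG00000016783 and 0.11 ± 0.04 for ENSDARG00000013729 in DKO (edgeR adjusted p = 2.01e-05 and 0.033); the difference between the pair was not tested. The second of them turned to -0.07 under library size alone (edgeR adjusted p = 0.181), and it lost its call without any 1 of WT replicates 1, 2, 3, 4 and 6 or DKO replicates 3 and 5 (0.0501 to 0.0765). How reads shared by near-identical copies were assigned is not given in the sources used here, so values of single copies are uncertain.

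**Figure D3:**
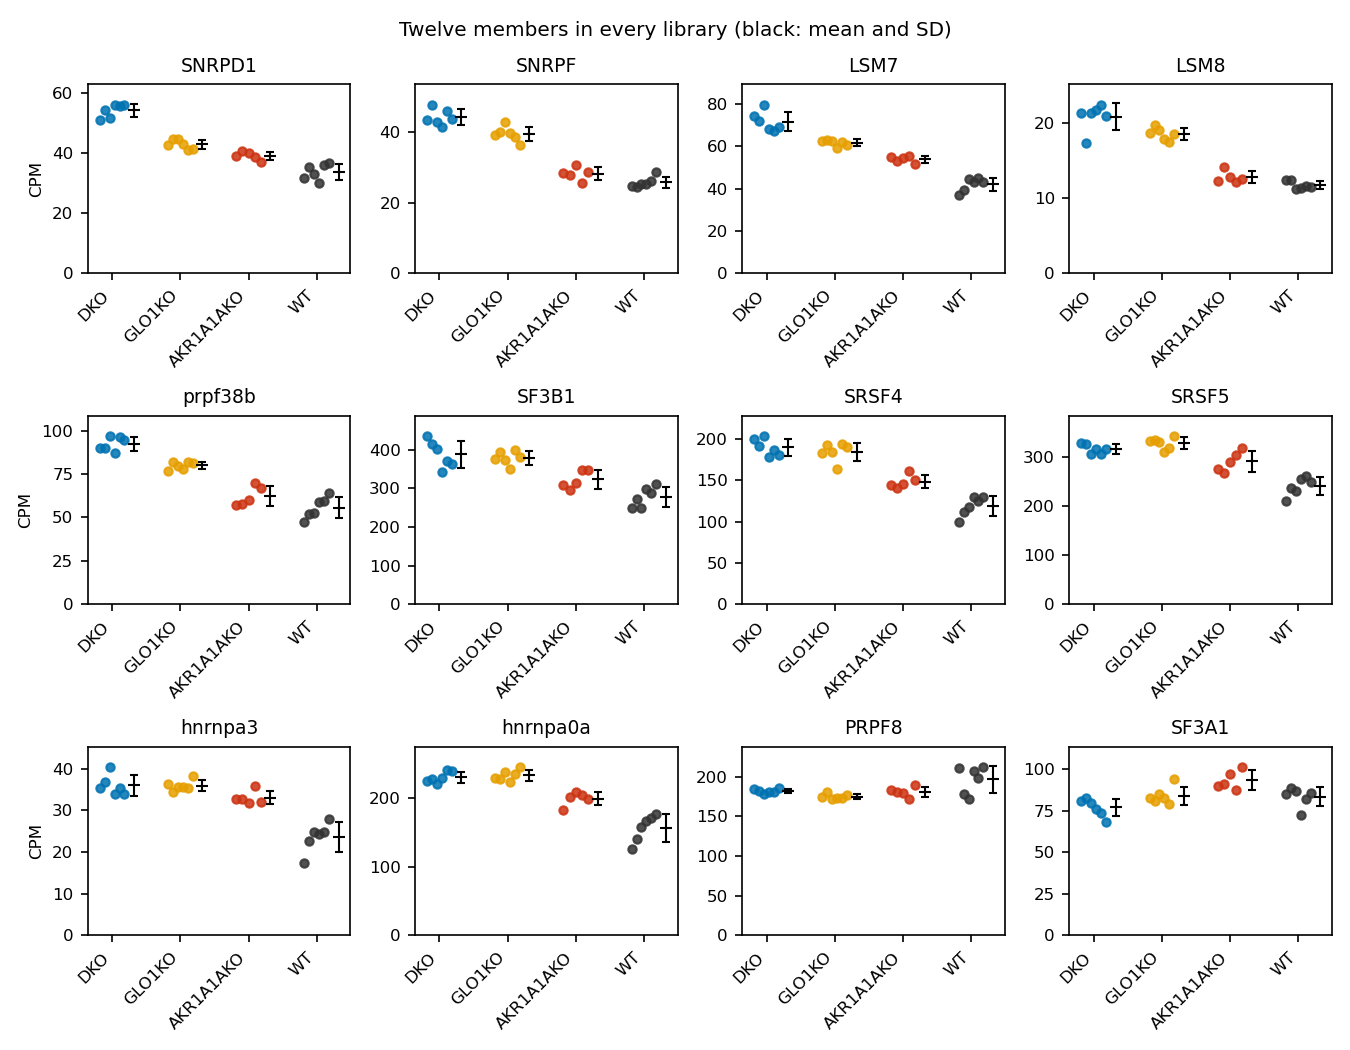
CPM after TMM scaling (y axes, from 0) of 12 splicing factor genes in every library, by genotype (x axes), with the mean and SD in black. SNRPD1 has 51.1 to 56.1 CPM in DKO libraries, above all others, whereas hnrnpa3 and SRSF5 have overlapping DKO and GLO1KO libraries and SF3A1 has its lowest values in DKO larvae.

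Of the 21 hnRNP genes, 17 were higher in DKO than in WT larvae and 0 lower (0 at the unadjusted p and by DESeq2 and limma), with a median log2 fold change of 0.30. In GLO1KO larvae 17 were higher (median 0.27) and in AKR1A1AKO larvae 11 (median 0.16). The hnRNPs of the A/B type are abundant proteins that bind nascent RNA and can compete with SR proteins at splice sites. The level of hnrnpa3 was 33.8 to 40.5 CPM (median 35.3) in DKO and 34.4 to 38.3 CPM (median 35.5) in GLO1KO libraries. It had 32.8, 32.8, 31.8, 35.7 and 32.1 CPM in AKR1A1AKO and 17.3 to 27.9 CPM (median 24.5) in WT libraries. All mutant libraries were above all WT libraries, at 0.60 ± 0.09 in DKO, 0.61 ± 0.09 in GLO1KO and 0.49 ± 0.09 in AKR1A1AKO (edgeR adjusted p = 5.91e-05, 2.77e-05 and 0.00287). For hnrnpa0a the values were 221 to 241 CPM (median 229) in DKO and 224 to 246 CPM (median 233) in GLO1KO libraries. It had 183, 203, 209, 206 and 199 CPM in AKR1A1AKO and 125 to 177 CPM (median 163) in WT libraries. After TMM scaling its mutant ranges again did not overlap WT. The log2 fold changes were 0.55 ± 0.07, 0.58 ± 0.07 and 0.36 ± 0.08 in the 3 mutants (edgeR adjusted p = 1.64e-05, 9.48e-06 and 0.00581). HNRNPA1L2 had 265 to 297 CPM (median 287) in DKO libraries against 180.1 to 203 CPM (median 193) in WT libraries (log2 fold change 0.54 ± 0.05 (SE), edgeR adjusted p = 2.01e-07). The 4 that did not pass in DKO were HNRNPL, hnrnpl2, hnrnpul1 and hnrnpul1l, with log2 fold changes of 0.03, 0.01, 0.07 and -0.07. With library size as the only scaling, HNRNPL, hnrnpl2 and hnrnpul1l passed as lower, at -0.15, -0.17 and -0.24 (edgeR adjusted p = 0.00494, 0.00146 and 0.00111). The gene hnrnpul1 did not pass then either (edgeR adjusted p = 0.0516).

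DKO against GLO1KO compared larvae without and with Akr1a1a where Glo1 was missing in both. Here 13 of 79 genes were higher and 0 lower (2 at the unadjusted p, 0 by DESeq2 and limma), where 9.36% of all genes tested were higher and 7.25% lower, and the median log2 fold change was 0.07. By more than 1.5-fold, 0 were higher by edgeR, at the unadjusted p, or by DESeq2 or limma (2.98% of all genes). The 13 were 5 Sm genes (SNRPB, SNRPD1, SNRPE, SNRPF, SNRPG), LSM5 and LSM7, SF3A2 and SF3B5, PRPF39, prpf38b, srsf5a and SRSF7. No hnRNP was among them (4 higher and 1 lower at the unadjusted p, 0 by DESeq2 and limma). The 21 hnRNP log2 fold changes with 1.96 SE either side, a normal approximation, ran from -0.20 to 0.20. SNRPD1 changed most, at 0.33 ± 0.04 (edgeR adjusted p = 7.34e-05), and its DKO libraries all lay above GLO1KO. That held for 6 of the 79 genes and 4.56% of all genes. PRPF39 changed by 0.21 ± 0.04 (edgeR adjusted p = 0.0018) and SF3B5 by 0.21 ± 0.06 (0.0156); the SF3B5 ranges overlapped. LSM5 had 9.43 to 11.8 CPM (median 10.9) in DKO libraries against 8.61 to 9.66 CPM (median 9.07) in GLO1KO libraries (log2 fold change 0.22 ± 0.07 (SE), edgeR adjusted p = 0.0289), and SRSF7 had 0.24 ± 0.07 (edgeR adjusted p = 0.0217).

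The count of 13 depended on single libraries. It was 8 without GLO1KO replicate 3, 6 without GLO1KO replicate 5 and 7 without DKO replicate 5, where 7.74%, 7.25% and 7.43% of all genes were higher. LSM5 lost its call without GLO1KO replicate 3 or 5 or DKO replicate 1, 4, 5 or 6 (edgeR adjusted p between 0.0524 and 0.0643), and SRSF7 without GLO1KO replicate 3 or 5 or DKO replicate 4 (0.0519 to 0.0537). With library size as the only scaling, 4 genes were higher and 3 lower (6.83% and 13.3% of all genes). The 4 were SNRPD1, PRPF39, prpf38b and LSM7, and the 3 were SF3A1, HNRNPD and SRSF5 (-0.19, -0.16 and -0.12). Of the 13 calls 9 were lost, among them SNRPB, SNRPE, SNRPF and SNRPG (edgeR adjusted p = 0.199, 0.0761, 0.1325 and 0.0744). The others lost were SF3A2, srsf5a, LSM5, SRSF7 and SF3B5 (edgeR adjusted p = 0.061, 0.316, 0.0939, 0.0539 and 0.0598). Liver markers also differed here, with 12 of 13 higher in DKO than in GLO1KO larvae, and 4 of 20 photoreceptor markers were lower.

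DKO against AKR1A1AKO compared larvae without and with Glo1 where Akr1a1a was missing in both. There 53 of 79 genes were higher and 1 lower (20.2% and 20.9% of all genes), 3 by more than 1.5-fold (3.77% of all genes), with a median log2 fold change of 0.24. The CPM ranges did not overlap for 41 of the higher genes (11.7% of all genes). All 7 Sm genes, 6 of 7 LSm2 to LSm8 genes and 13 of 15 SR genes were higher, against 11 of 21 hnRNPs. LSM8 changed by 0.69 ± 0.07 (edgeR adjusted p = 3.64e-06), SNRPF by 0.64 ± 0.06 (8.54e-07), srsf3a by 0.63 ± 0.17 (0.00695) and prpf38b by 0.56 ± 0.06 (4.46e-06). The SR gene srsf2b had 35.5 to 54.8 CPM (median 44.5) in DKO libraries against 27.01, 33.1, 29.6, 30.9 and 34.5 CPM in AKR1A1AKO libraries, which did not overlap (log2 fold change 0.49 ± 0.10 (SE), edgeR adjusted p = 0.0011). The 1 gene that fell was SF3A1, a subunit of the U2-binding SF3A complex, with 68.3 to 82.6 CPM (median 77.9) in DKO and 78.9 to 94.2 CPM (median 82.6) in GLO1KO libraries. It had 89.8, 91.1, 97.2, 87.5 and 101 CPM in AKR1A1AKO and 72.3 to 88.5 CPM (median 85.4) in WT libraries. DKO libraries were all below AKR1A1AKO (log2 fold change -0.29 ± 0.06 (SE), edgeR adjusted p = 0.000888). Against WT SF3A1 was higher in AKR1A1AKO (0.17 ± 0.06, edgeR adjusted p = 0.0474) and did not pass in DKO (-0.13 ± 0.06, edgeR adjusted p = 0.0744). With library size as the only scaling SF3A1 passed as lower in DKO against WT, at -0.31 (edgeR adjusted p = 0.00034). The AKR1A1AKO call of SF3A1 was lost under library size alone (edgeR adjusted p = 0.197) and without any 1 of WT replicates 1, 3, 4 and 5 or AKR1A1AKO replicates 2, 3, 4 and 5 (0.0509 to 0.104).

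Whether the change that goes with loss of Akr1a1a differed between larvae without and with Glo1 was tested as an interaction, the log2 change of DKO against GLO1KO minus that of AKR1A1AKO against WT. It passed for 14 of 79 genes, 3 positive and 11 negative, where 31.8% of all genes passed, 17% positive and 14.9% negative. Among the 79 genes 3.8% were positive, below the share of all genes, and 13.9% negative, near that share. Beyond 1.5-fold, 0 passed by edgeR, at the unadjusted p, or by DESeq2 or limma (10.2% and 3.15% of all genes). The 11 negative genes were 6 hnRNPs (hnrnpa3, hnrnpa0a, HNRNPM, HNRNPD, hnrnph1 and HNRNPU ENSDARG00000004735), 4 SR genes (SRSF5, SRSF4 and both SRSF1 entries) and SF3A1. For SRSF5, an SR protein that binds exonic enhancers, the interaction was -0.33 ± 0.07 (SE, edgeR adjusted p = 0.00138), with 304 to 327 CPM (median 316) in DKO and 310.3 to 342 CPM (median 330.0) in GLO1KO libraries and with 274, 267, 288, 304 and 318 CPM in AKR1A1AKO and 209 to 260.2 CPM (median 243) in WT libraries. Its change was thus -0.06 ± 0.03 in larvae without Glo1 and 0.28 ± 0.07 in larvae with it. For hnrnpa3 the interaction was -0.48 ± 0.11 (edgeR adjusted p = 0.00154), from -0.01 ± 0.05 and 0.49 ± 0.09, and for hnrnpa0a -0.37 ± 0.09 (0.0027), from -0.03 ± 0.03 and 0.36 ± 0.08.

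The 3 positive genes were PRPF31, PRPF19 and PRPF8, at 0.26, 0.24 and 0.18 (edgeR adjusted p = 0.0134, 0.0226 and 0.0394); PRPF19 is the ubiquitin ligase of the complex named after it. Under TMM each had a positive log2 change in DKO against GLO1KO and a negative one in AKR1A1AKO against WT, none of which passed alone. With library size as the only scaling, PRPF8 turned to -0.01 in DKO against GLO1KO. PRPF31 and PRPF8 then passed as lower in AKR1A1AKO against WT, at -0.17 and -0.18 (edgeR adjusted p = 0.0317 and 0.0487). PRPF8 lost its interaction call under library size alone (edgeR adjusted p = 0.0621) and by DESeq2 (adjusted p = 0.052), which called 2 genes positive. It lost the call in 16 of the 23 fits that left out 1 library (edgeR adjusted p between 0.0507 and 0.08). No Sm or LSm2 to LSm8 gene passed the interaction by edgeR, by the unadjusted p, or by DESeq2 or limma. Photoreceptor markers moved with the negative genes, with 19 of 20 negative in the interaction, as did 13 of 21 neuron markers, and 13 of 14 liver markers were positive; their part was not tested. Without WT replicates 1 and 2 the interaction passed for 11 genes, and for 23.4% of all genes; PRPF19, SRSF4 and hnrnph1 then did not pass (edgeR adjusted p = 0.0856, 0.0524 and 0.0651).

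**Figure D4:**
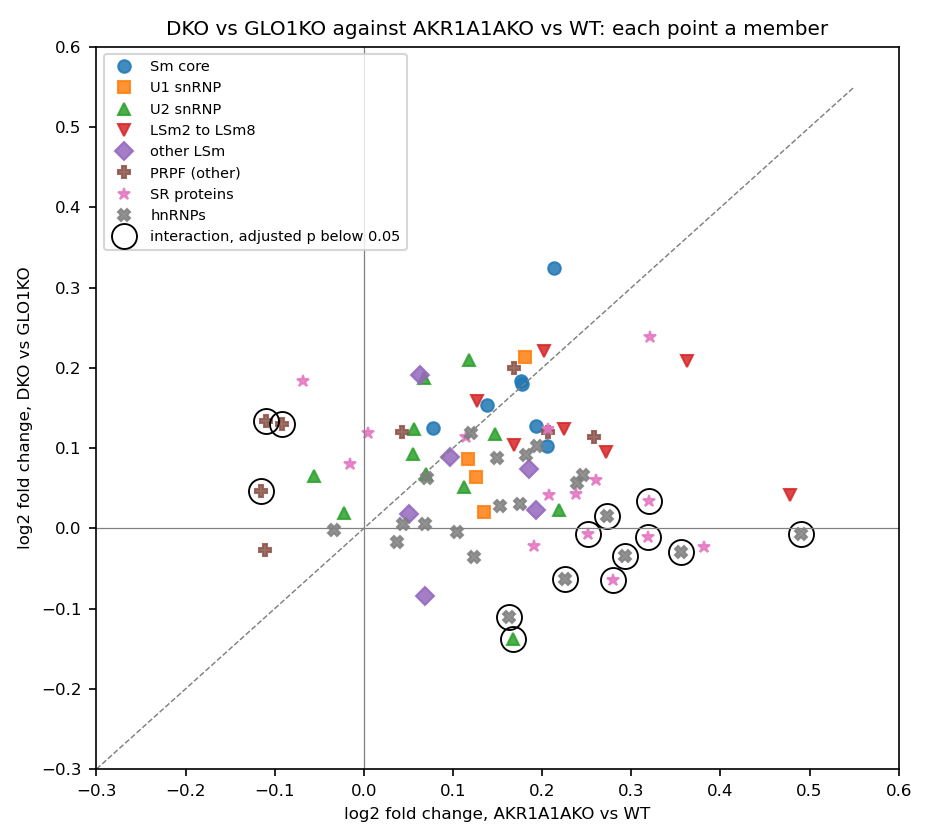
Log2 fold change of DKO against GLO1KO (y axis) and of AKR1A1AKO against WT (x axis), comparisons that share no library, for the 79 tested genes by complex; the dashed line marks equal changes and rings mark the 14 genes that passed the interaction. The 7 Sm genes lie between 0.10 and 0.33 on the y axis, while the ringed hnRNP and SR genes lie to the right of and below the line.

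The scaling moved the level of all changes. Over all genes tested, the median for DKO against WT was -0.01 under TMM and -0.18 under library size alone, with -0.13 in GLO1KO and -0.07 in AKR1A1AKO against WT, -0.06 in DKO against GLO1KO and -0.11 in DKO against AKR1A1AKO. Under library size alone the splicing factor genes had a median of 0.23 in DKO, 0.19 in GLO1KO and 0.10 in AKR1A1AKO against WT. The genes higher and lower were then 47 and 8 in DKO (16.2% and 45.2% of all genes), 46 and 8 in GLO1KO (19.8% and 42%), 15 and 3 in AKR1A1AKO (10.8% and 24.7%), and 35 and 9 in DKO against AKR1A1AKO (10.5% and 32.9%). Of the 66 genes higher in DKO under TMM, 19 did not pass under library size alone. By complex, library size alone gave 7 of 7 Sm genes, 7 of 7 LSm2 to LSm8 genes and 13 of 15 SR genes higher in DKO than in WT larvae, with 10 higher and 3 lower of 21 hnRNPs, 4 and 2 of 11 U2 genes and 2 and 2 of 8 PRPF genes. It gave 1 of 4 U1 genes higher and 0 lower, and 3 higher and 1 lower of 6 other LSm genes. In AKR1A1AKO against WT it gave 0 of 7 Sm and 2 of 7 LSm2 to LSm8 genes higher. There 6 of 15 SR and 7 of 21 hnRNP genes were higher, and 0 of the U1, U2 and other LSm genes. Of the 8 PRPF genes 0 were higher and 3 lower there. The group medians that changed sign were the U2 and PRPF genes in GLO1KO against WT (to 0.00 and -0.05) and the hnRNPs, SR and other LSm genes in DKO against GLO1KO (to -0.05, -0.01 and -0.01).

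**Figure D5:**
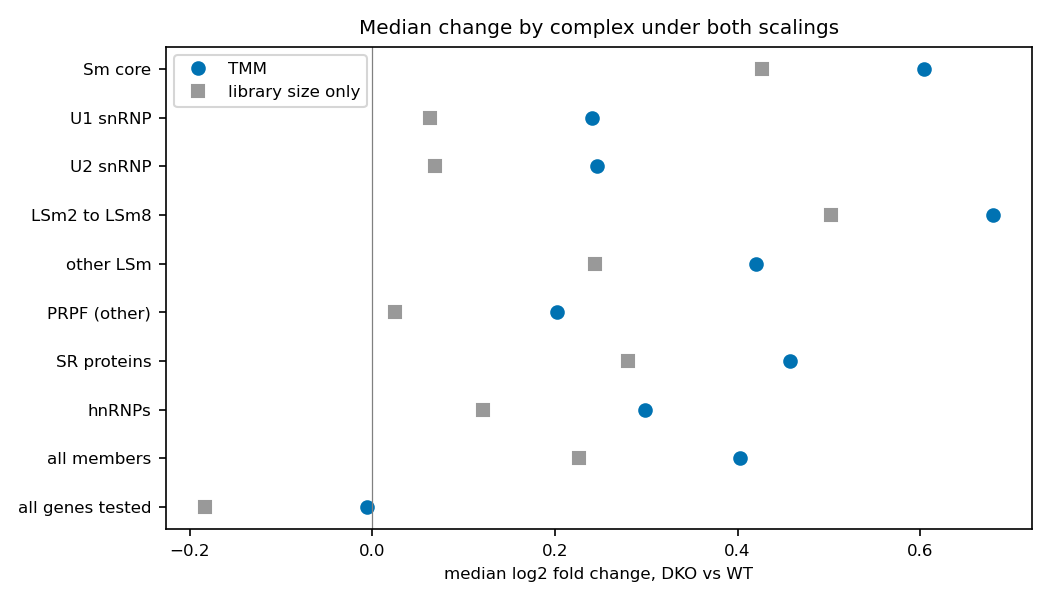
Median log2 fold change of DKO against WT (x axis) by complex, over all 79 genes and over all genes tested (y axis), with TMM scaling (circles) and with library size only (squares). Library size alone moves every median down by about the shift of all genes, to -0.18, and leaves the Sm core at 0.43 and the LSm2 to LSm8 ring at 0.50.

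The rest of the splicing pathway was read from lists of genes outside the symbol rule. These lists were read under TMM only, and their counts under library size alone were not taken. Of 95 tested genes for other spliceosome proteins, splicing kinases and regulators, 68 were higher and 4 lower in DKO than in WT larvae, with a median log2 fold change of 0.28. In GLO1KO larvae 57 were higher and 8 lower, in AKR1A1AKO larvae 38 and 2. Over all genes tested, 29.6% were higher and 31.4% lower in DKO, 30.5% and 32.5% in GLO1KO, and 17.8% and 19.7% in AKR1A1AKO larvae. CLK1, a kinase that phosphorylates SR proteins, changed by 0.78 ± 0.09 in DKO (edgeR adjusted p = 5.57e-06), SNRNP35 of the minor U11/U12 spliceosome by 0.76 ± 0.11 (3.36e-05) and RBM5, a regulator of alternative splicing, by 0.77 ± 0.12 (7.18e-05). Of the 4 that fell, srpk1b, an SR protein kinase, had -0.66 ± 0.05 (edgeR adjusted p = 4.50e-08), RBM22 of the catalytic spliceosome -0.43 ± 0.06 (1.67e-05) and the U5 GTPase EFTUD2 -0.16 ± 0.04 (0.00543). A further list covered snRNP assembly and transport and other steps of small nuclear RNAs, the latter with ice1, LARP7, MEPCE, USB1 and TOE1. Of its 20 tested genes, 12 were higher and 1 lower in DKO, and 10 and 1 in GLO1KO larvae. In AKR1A1AKO larvae 1 was higher and 1 lower, below the shares of all genes. Among them gemin6 of the SMN complex, which loads Sm rings, had 0.68 ± 0.07 in DKO and SNUPN, the snRNP import adaptor, 0.55 ± 0.06 (edgeR adjusted p = 2.27e-06 and 1.09e-06). The 2 export receptor genes went opposite ways, with xpo1a lower (-0.34 ± 0.06, edgeR adjusted p = 0.000125) and XPO1 higher (0.18 ± 0.05, edgeR adjusted p = 0.00333).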

How the data were processed

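RNA-seq was analysed for 23 libraries of whole larvae. The deposited table holds estimated counts per gene, made by the authors from strand-specific mRNA libraries by SOAPnuke filtering, HISAT2 alignment to GRCz11 and featureCounts 2.0.3 counting. Counts had been planned for, but 94 genes (0.411%) held values that were not whole, and all values were rounded. Genotypes came from the sample labels.

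Genes passing edgeR's filterByExpr were scaled by TMM and tested with the quasi-likelihood test (edgeR 4.0.16, R 4.3.3) on the libraries of each comparison, all 4 genotypes for the interaction. P-values were adjusted by Benjamini-Hochberg over all genes tested, at 0.05. Each standard error (SE) was derived from the test, as the absolute log2 fold change divided by the square root of its F statistic. The study's own threshold added a fold change above 1.5. The procedure was run on simulated counts with the same spread setting for every gene and a small set of changed genes. That run held no shift in scaling and no trend among WT libraries, so it could not test either. Totals of 34316505 to 36804418 reads left little counting error in all but the lowest genes. The genes described were the up to 3 largest changes per complex in DKO against WT among those that passed without overlap of the CPM ranges, the up to 5 largest that passed in each other comparison, and the 3 smallest interaction p-values; others were chosen after their values were seen. The splicing factor genes and all lists were chosen with earlier results of these data known.

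Alternatives were DESeq2 size factors, library size alone, no filter, DESeq2 1.42.0, limma 3.58.1 (limma-trend), a replicate block, 1 fit of all libraries and each library left out; leaving out WT replicates 1 and 2 was added after seeing the data. The akr1a1a gene was not analysed here.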

Additional observations from a re-analysis of the deposited data

Results flagged for a closer look

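For the 28 splicing factor genes chosen by rule, the 4 genotypes gave 112 groups of libraries, and in 7 of them (6.25%) the highest or lowest library stood apart from the rest; chance flags about 1 in 20, or 5.6 groups. In DKO larvae LSM8 had 17.34 CPM in replicate 2, against 21.05 to 22.5 CPM in the others, LSM12 had 32.16 CPM in replicate 4, against 28.08 to 29 CPM, PRPF18 had 23.99 CPM in replicate 3, against 20.8 to 21.73 CPM, and LSM2 had 1.548 CPM in replicate 4, against 2.229 to 2.615 CPM. In GLO1KO larvae SRSF4 had 164.2 CPM in replicate 4, against 182.8 to 193.9 CPM. In AKR1A1AKO larvae hnrnpa3 had 35.73 CPM in replicate 4, against 31.82 to 32.82 CPM, and LSM5 had 9.457 CPM in replicate 3, against 7.441 to 7.921 CPM.

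The interaction, the log2 change of DKO against GLO1KO minus that of AKR1A1AKO against WT, passed for 4 of these genes. Of all genes tested, 31.8% passed it. The values were -0.4823 for hnrnpa3, -0.3712 for hnrnpa0a, -0.3295 for SRSF5 and -0.2704 for SRSF4. SRSF5, hnrnpa3 and hnrnpa0a had been chosen for the smallest interaction p-values, so that they passed follows from the choice. SRSF5 was chosen on that ground alone, and hnrnpa3 and hnrnpa0a also for their changes against WT. SRSF4 was chosen for its changes against WT.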

How the results depend on the processing

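In the comparisons for which the rule chose a gene, no value changed direction under any alternative run. In other comparisons some values of these genes did. Under library size alone SRSF7 in GLO1KO against WT went from 0.03 to -0.10. There hnrnpa3 in DKO against AKR1A1AKO went from 0.11 to -0.01. The counts that follow cover the comparisons chosen by rule. Of the 398 gene values under other settings 31 no longer passed, and of the 575 with a library left out 9. The 31 counted the 1.5-fold criterion as a setting, and most were values below it. The rest were SNRPC and PRPF18 in DKO against WT, and SRSF7, LSM5 and SF3B5 in DKO against GLO1KO, under library size alone. LSM5 was also lost there under the replicate block and in the fit of all libraries. Requiring a fold change above 1.5 as well left 15 genes higher in DKO, 7 in GLO1KO (0 lower) and 0 in AKR1A1AKO larvae against WT, 0 in DKO against GLO1KO, 3 higher and 0 lower in DKO against AKR1A1AKO, and 0 in the interaction. Library size alone gave 8 lower in DKO and 8 in GLO1KO, 15 higher and 3 lower in AKR1A1AKO against WT, 4 and 3 in DKO against GLO1KO, and 35 and 9 in DKO against AKR1A1AKO. One fit of all 23 libraries called 1 gene lower in DKO and 1 in AKR1A1AKO larvae against WT, and DESeq2 called 2 lower in DKO against AKR1A1AKO. Without WT replicates 1 and 2, the genes lower in DKO were 2 (PRPF8 and hnrnpul1l) and those higher in AKR1A1AKO 21. With single libraries left out, the numbers were 63 to 66 higher and 0 to 1 lower in DKO against WT (1 without WT replicate 2, 3 or 4), 27 to 37 higher in AKR1A1AKO against WT, 6 to 16 higher in DKO against GLO1KO, 1 to 2 lower in DKO against AKR1A1AKO (2 without AKR1A1AKO replicate 2) and 12 to 19 in the interaction. The cause of these changes was not tested.

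Replicate numbers did not pair libraries across genotypes: in no comparison did every same-numbered pair correlate above 0.1, and at most 1 library correlated best with its own number. With the replicate number as a block, 66 genes were higher in DKO, 59 higher and 2 lower in GLO1KO and 41 higher in AKR1A1AKO larvae against WT, 10 higher in DKO against GLO1KO, 44 higher and 1 lower in DKO against AKR1A1AKO, and 17 passed the interaction. LSM5 in DKO against GLO1KO lost its call under the block (edgeR adjusted p = 0.0505) and in the fit of all libraries (0.0816).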
